A study of Mus musculus with 8 samples.

Results

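Interferon response genes are genes whose RNA rises when a cell receives an interferon, and 41 of them were followed in mouse liver RNA. They were a fixed list of symbols, set by name but with earlier results of these data known. The list held 34 genes grouped as type I-like and 7 GTPases of the guanylate-binding and immunity-related families. Some of the type I-like genes, such as Irf1 and Cxcl10, also answer strongly to interferon gamma. Each symbol was found among the 22946 rows of the count table, and all 41 passed the filter on low counts that left 12593 tested rows. Ifi47 shares a merged row with the olfactory receptor gene Olfr56, so its values are those of both genes together. The livers came from C57 black mice, either wild-type or labelled as MLL4 het, that began chow or a high-fat diet (HFD) at 8 weeks of age and stayed on it for 8 weeks. There were 2 RNA-seq libraries in each of 4 groups: wild-type chow (libraries 1 and 2), wild-type HFD (5 and 6), het-labelled chow (3 and 4) and het-labelled HFD (7 and 8). All mice of a group shared 1 diet and 1 genotype label, total liver RNA was used, and the labels give neither the MLL4 allele nor the number of animals behind a group. The p-values therefore measure the spread between libraries, which may be technical. In later sentences values are given by library number, in the order 1, 2, 5, 6, 3, 4, 7 and 8. The study asked which genes respond to HFD in wild-type liver but less in MLL4 het liver.

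Interferons are secreted signals of infection and tissue danger. Type I interferons bind the receptor made of Ifnar1 and Ifnar2, which acts through the kinases Jak1 and Tyk2 to bring Stat2 and Irf9 into a complex that binds the interferon-stimulated response element in promoters, whereas interferon gamma binds Ifngr1 and Ifngr2 and acts in part through Irf1. The products block viral replication, sense foreign nucleic acid, tag proteins with ISG15 or attack vacuoles that hold microbes, and in liver hepatocytes, Kupffer cells and endothelial cells can all express them.

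Totals ranged from 14142884 to 18928676 counts per library, and levels are given as CPM, counts per 1e+06 counts of the library after scaling of the library sizes with TMM factors. MLL4 is a name of the histone methyltransferase Kmt2d, whose row was not lower in the het-labelled livers, with log2 differences of 0.01 on chow (95% interval -0.27 to 0.30) and 0.11 on HFD (-0.17 to 0.39), so that the animals are called het-labelled here. A row that counts the whole gene would not show a deletion of a part of it. The 10 hepatocyte markers summed to between 81081 and 100780 CPM in every library, the markers of the labelled tissue. Het-labelled chow library 3 and het-labelled HFD library 8 stood apart on the third principal component of all tested rows, at 18.5 and -23.9 against -5.94 to 9.71 for the other libraries, and counts without both are given where they move a result.

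Of the 17 members that were higher on HFD in wild-type but lower in het-labelled livers, 5 were picked by name for display. Promoter sequences are shown for these 5 and for Dtx3l, which rose on HFD in wild-type liver. They are the 250 bases before the transcript start of each gene from RefSeq (build GRCm38.p6, whereas reads were counted on mm9), 5′ to 3′ on the strand of the gene, with capitals for the core of the interferon-stimulated response element, which is GAAA, any 2 bases and GAAA, or for its reverse complement.
Oas1a, chr5:120907526-120907775, minus strand: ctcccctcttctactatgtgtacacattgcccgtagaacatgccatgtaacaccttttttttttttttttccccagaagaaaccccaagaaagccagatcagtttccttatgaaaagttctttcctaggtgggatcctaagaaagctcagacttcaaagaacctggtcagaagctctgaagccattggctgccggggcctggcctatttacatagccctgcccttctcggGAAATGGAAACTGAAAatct
Oas1g, chr5:120887614-120887863, minus strand: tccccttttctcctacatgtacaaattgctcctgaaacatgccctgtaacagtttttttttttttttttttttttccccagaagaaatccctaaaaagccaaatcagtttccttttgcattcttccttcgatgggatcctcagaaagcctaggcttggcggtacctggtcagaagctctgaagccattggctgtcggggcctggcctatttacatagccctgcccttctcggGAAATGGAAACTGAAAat
Ifit1, chr19:34640639-34640888, plus strand: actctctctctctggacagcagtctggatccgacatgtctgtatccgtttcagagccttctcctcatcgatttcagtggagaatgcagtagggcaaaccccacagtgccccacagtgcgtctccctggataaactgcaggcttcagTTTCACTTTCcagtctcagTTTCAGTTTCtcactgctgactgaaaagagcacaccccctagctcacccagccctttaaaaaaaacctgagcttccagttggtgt
Ifit3, chr19:34583279-34583528, plus strand: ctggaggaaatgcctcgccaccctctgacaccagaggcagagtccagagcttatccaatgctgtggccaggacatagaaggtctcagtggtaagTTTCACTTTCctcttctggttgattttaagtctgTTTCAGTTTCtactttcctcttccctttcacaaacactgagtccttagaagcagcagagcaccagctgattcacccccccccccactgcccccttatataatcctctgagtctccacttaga
Rsad2, chr12:26456453-26456702, minus strand: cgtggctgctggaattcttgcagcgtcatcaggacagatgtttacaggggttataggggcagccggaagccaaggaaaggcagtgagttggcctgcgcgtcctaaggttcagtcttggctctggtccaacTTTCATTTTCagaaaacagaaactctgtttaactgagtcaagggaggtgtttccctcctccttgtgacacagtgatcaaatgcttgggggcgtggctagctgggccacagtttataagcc
Dtx3l, chr16:35939028-35939277, minus strand: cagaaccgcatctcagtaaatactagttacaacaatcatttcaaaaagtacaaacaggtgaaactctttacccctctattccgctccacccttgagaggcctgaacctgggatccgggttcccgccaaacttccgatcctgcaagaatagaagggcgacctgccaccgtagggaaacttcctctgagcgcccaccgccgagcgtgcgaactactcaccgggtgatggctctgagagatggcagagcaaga
Oas1a and Oas1g, neighbouring copies of the same synthetase gene, each hold 2 overlapping matches that begin 20 and 14 bases before the start in Oas1a and 18 and 12 in Oas1g. The matches begin 104 and 85 bases before the start in Ifit1, 156 and 122 bases in Ifit3 and 120 bases in Rsad2. Dtx3l holds none in this stretch. RefSeq promoters, from 250 bases before to 50 after the start, were matched to 31 of the 41 members and not to Zbp1, Oas2, Rtp4, Dhx58, Gbp6, Usp18, Mx2, Mx1, Parp14 and Parp9. Searched on both strands, this core motif occurred in 18 of the 31 (58.1%, exact 95% interval 39.1 to 75.5%) and in 3.99% of the 27025 genes with a promoter of that length. These 18 were 13 of 25 type I-like members and 5 of 6 GTPases. The 5 members picked for display all hold the core motif. Among the rest of the 17 with the same diet signs, Ifit2, Oasl2 and Ifi44 held no match. Ifih1, Eif2ak2, Isg15, Oas3, Gbp2, Gbp3 and Irgm1 held at least 1. Each match is a description of letters, not a measured binding site.

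Across the 4 groups the members were lowest in wild-type chow livers and highest in het-labelled chow livers. The het-labelled chow mean was the highest of the 4 group means for 27 of 41 members, against 29.2% of all tested rows, and the wild-type chow mean was the lowest for 28, against 27% of all rows. On the log2(CPM + 0.5) scale, the average member stood 0.30 and 0.20 below its own mean over the 8 libraries in wild-type chow libraries 1 and 2, and 0.20 and 0.33 above it in het-labelled chow libraries 3 and 4. The HFD libraries stood at 0.03 and -0.25 in wild-type libraries 5 and 6 and at 0.02 and 0.16 in het-labelled libraries 7 and 8. Libraries of the 2 chow groups did not overlap in this average. Wild-type HFD library 6 lay within the range of wild-type chow, and wild-type HFD library 5 lay above het-labelled HFD library 7. For the 7 GTPases alone, library 6 was the lowest of all 8, at -0.43. The average over all tested rows stayed between -0.02 and 0.01 in each library. Bulk RNA cannot tell fewer cells of a type apart from less RNA per cell.

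**Figure D1:**
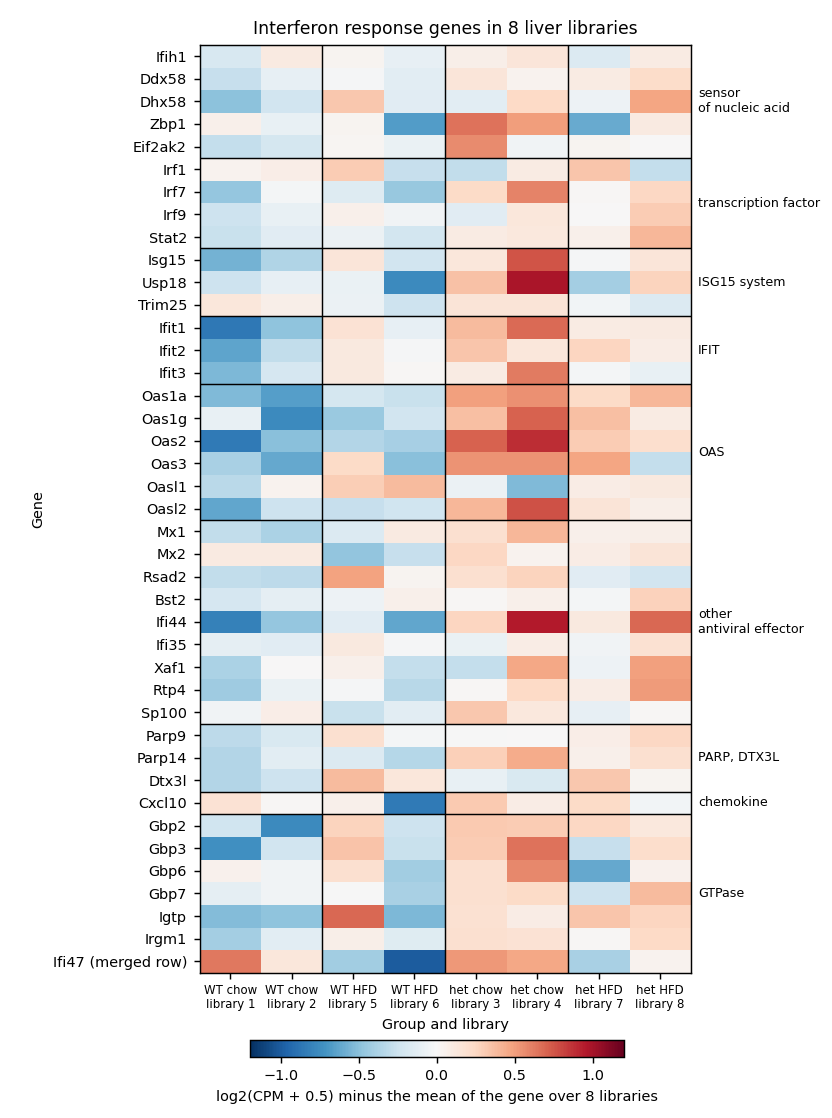
Level of each of the 41 interferon response genes (rows, grouped by role) in each of the 8 liver libraries (columns, grouped by genotype and diet), as log2(CPM + 0.5) minus the mean of the gene over the 8 libraries. Red is above and blue below that mean, and most rows are blue in wild-type chow libraries 1 and 2 and red in het-labelled chow libraries 3 and 4.

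**Figure D2:**
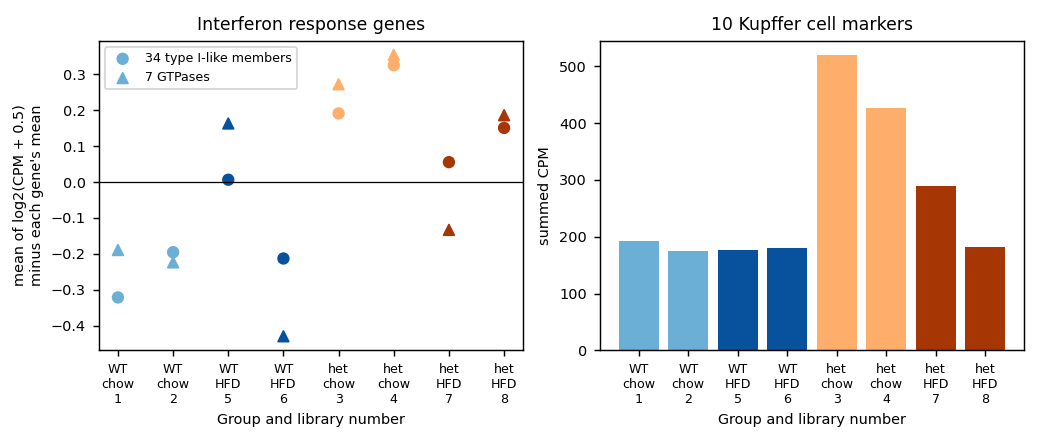
Mean of log2(CPM + 0.5) minus the mean of each gene, over the 34 type I-like members (circles) and over the 7 GTPases (triangles), for each library by group. Beside it is the summed CPM of 10 Kupffer cell markers in the same libraries. The type I-like mean runs from -0.32 in library 1 to 0.33 in library 4. The GTPase mean runs from -0.43 in library 6 to 0.35 in library 4, and the Kupffer sum from 175 in library 2 to 519 in library 3.

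On chow, 39 of 41 members were higher in het-labelled than in wild-type livers, with a median log2 difference of 0.45 against 0.01 over all tested rows, of which 52.5% were higher. Oas2, Ifit1 and Oas1a rose by edgeR's quasi-likelihood test at an adjusted p under 0.05, and no member fell. Of all tested rows 0.516% were called in this comparison, 0.326% higher and 0.191% lower. At an unadjusted p under 0.05, 22 members were higher and 0 lower, against 8.10% and 7.24% of all rows. Both het-labelled libraries lay above both wild-type libraries for 33 members and below them for 0, against 24.0% and 21.9% of all rows. Without libraries 3 and 8 the test passed 5 members, Oas2 and Ifit1 among them. Leaving out library 1, 2, 3 or 6 gave 0 calls, and leaving out library 5 gave 1.

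Markers of Kupffer cells, the resident macrophages of the liver, moved with this difference. All 10 were higher in both het-labelled chow libraries than in both wild-type chow libraries, and 5 (Clec4f, Cd5l, C1qa, C1qb and C1qc) passed the test, with Cd5l higher by 1.76 on the log2 scale (adjusted p = 0.0356). Summed over the 10 markers, the level was 192 and 175 CPM on chow and 176 and 180 on HFD in wild-type livers, and 519 and 427 on chow and 290 and 181 on HFD in het-labelled livers. Het-labelled HFD library 8 thus lay within the wild-type range of 175 to 192 CPM. In that library 21 of 41 members were above every wild-type library, against 24.7% of all tested rows. The counts were 25, 28 and 15 in libraries 3, 4 and 7, against 30.8%, 25.9% and 24.2% of all rows. Monocyte and neutrophil markers summed to 5.53 and 6.12 CPM in het-labelled chow libraries and to between 1.75 and 4.02 in the others. The 5 markers of plasmacytoid dendritic cells, a major source of type I interferon, summed to between 13.1 and 16.3 CPM in the het-labelled libraries, highest in chow library 3 and HFD library 7, and to between 11.7 and 13.3 CPM in the wild-type libraries. Nearly all of that sum was Tcf4, a factor that other cell types express too, at 11.0 to 15.8 CPM, with a chow genotype difference of 0.33 on the log2 scale (edgeR adjusted p = 0.321). The defining marker Siglech did not exceed 0.284 CPM. The 10 T and NK cell markers summed to between 4.10 and 6.33 CPM, with the highest sum in het-labelled HFD library 7 and the lowest in wild-type chow library 1. Among them Cd4, which macrophages can also express, was higher on HFD over both genotypes (0.86 on the log2 scale, edgeR adjusted p = 0.0355). Cd3e did not exceed 0.496 CPM. Gzma and Klrb1c, which were too low to be tested, went opposite ways on chow. Gzma was highest in het-labelled chow, at 0.850 and 0.544 CPM (12 and 8 counts). Klrb1c stood at 0.441 and 0.522 CPM in wild-type chow and at 0.283 and 0.204 in het-labelled chow. The 7 markers of sinusoidal endothelial cells summed to 210 CPM in het-labelled chow library 3, above 145 to 184 CPM in the other libraries. The 6 stellate cell markers summed to 202 CPM in library 3, above 125 to 174 CPM in the others. Het-labelled chow library 4 did not share this, at 151 and 150 CPM. The part of these cells in the member differences was not tested.

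On HFD no member passed for genotype. Although 35 of 41 members were higher in het-labelled livers, the median log2 difference was 0.15, and edgeR's test passed 0 members, as did DESeq2. Of all tested rows 0.445% were called here and 50.4% were higher, with a median of 0.00. At an unadjusted p under 0.05, 8 members were higher and 1 lower, against 5.85% and 7.93% of all rows, and libraries did not overlap for 13 higher and 3 lower members, against 22.8% and 24.3%. The number of higher members ranged from 22 to 37 when 1 library at a time was left out, and was 27 without libraries 3 and 8. All 10 Kupffer markers were higher in het-labelled livers on HFD too, 5 without overlap, at a median log2 difference of 0.49, and none passed.

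With the genotype difference averaged over both diets, 6 members rose in het-labelled livers: Oas2, Oas1a, Oasl2, Ifi44, Ifit1 and Parp14. None fell, and 3.24% of all tested rows were called, 1.21% higher and 2.03% lower. Altogether 39 members were higher, against 52.4% of all rows, with a median of 0.33 against 0.01. All 4 het-labelled libraries lay above all 4 wild-type libraries for 10 members (Ddx58, Irf7, Stat2, Oas1a, Oas1g, Oas2, Oasl2, Ifi44, Rtp4 and Parp14), against 4.11% of all rows. The same 6 members passed without libraries 3 and 8, but leaving out a single library gave 1 call for libraries 1, 2 and 6, 2 for libraries 5 and 8, and 3 for library 3. Oas2 passed in each of the 12 alternatives. Kupffer markers rose in this comparison too, with 7 of 10 called.

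**Figure D3:**
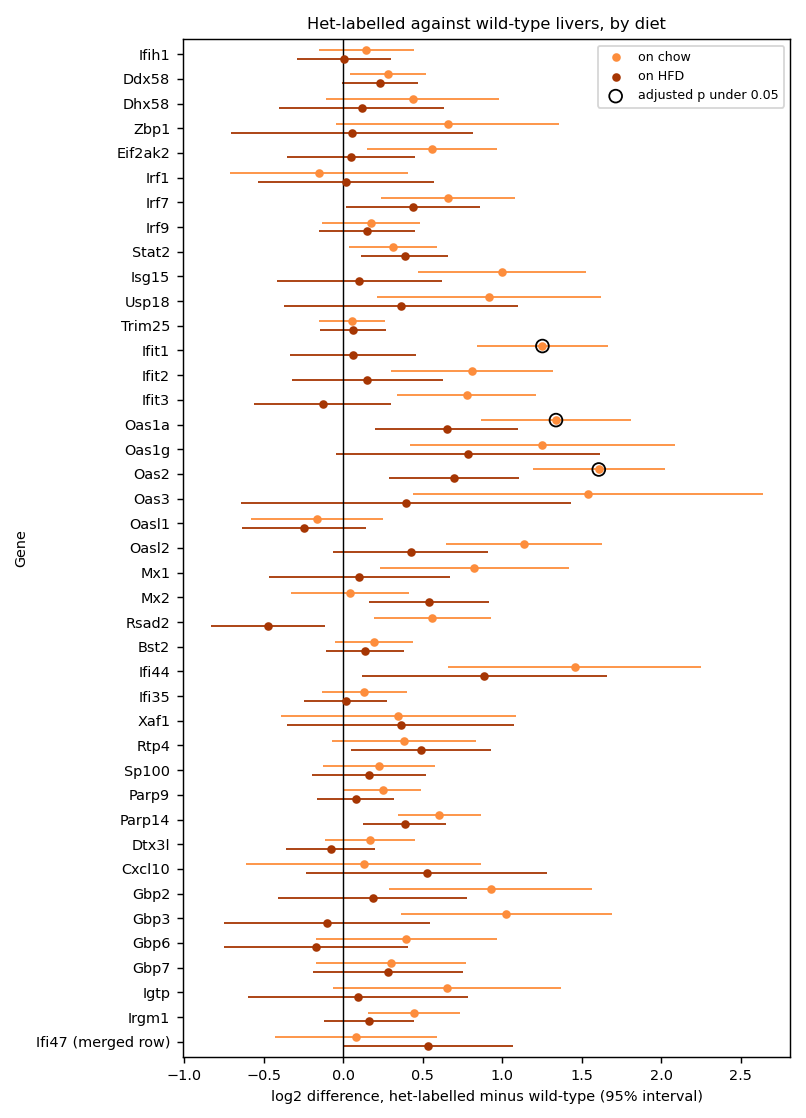
Log2 difference of het-labelled minus wild-type livers for each of the 41 members on chow and on HFD, with 95% intervals from the edgeR fit; rings mark an adjusted p under 0.05. On chow 39 of 41 points lie above 0 and 3 are ringed (Oas2, Ifit1 and Oas1a), and on HFD 35 lie above 0 and none is ringed.

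Of the 41 members 17 were higher on HFD in wild-type livers and lower on HFD in het-labelled livers, against 20.5% of all tested rows, and 1 had the reverse signs, against 15.5%. Another 12 were higher on HFD in both genotypes, against 33.4% of all rows, and 11 were lower in both, against 30.6%. The test of the difference between the genotypes passed for no member. In wild-type livers 29 of 41 members were higher on HFD, with a median log2 difference of 0.18 against 0.02 over all rows, of which 53.9% were higher. Dtx3l rose and the Ifi47 row fell, and 4.59% of all tested rows were called, 2.37% higher and 2.22% lower. At an unadjusted p under 0.05, 8 members were higher and 3 lower, against 10.3% and 8.77% of all rows. Both HFD libraries lay above both chow libraries for 16 members and below them for 4, against 30.6% and 25.2%. Leaving out library 1 or 2 gave 0 calls, leaving out library 5 gave 1, and leaving out libraries 3 and 8 together gave 3. The summed Kupffer markers overlapped between the wild-type diets. Of the 10 single markers 8 were lower on HFD, at a median log2 difference of -0.17, and none passed. Libraries did not overlap for 5 lower and 1 higher marker, against 25.2% and 30.6% of all rows.

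In het-labelled livers 28 of 41 members were lower on HFD, with a median log2 difference of -0.24 against -0.01 over all rows, of which 48.8% were higher. No member passed edgeR's or DESeq2's test, and 3.02% of all tested rows were called, 1.53% higher and 1.48% lower. At an unadjusted p under 0.05, 10 members were lower and 1 higher, against 9.13% and 9.04% of all rows, and libraries did not overlap for 17 lower and 4 higher members, against 22.4% and 22.3%. Without libraries 3 and 8 edgeR called 2 members lower. Here 7 of the 10 Kupffer markers fell, and all 10 were lower in both HFD libraries.

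For the interaction of genotype and diet, the diet difference in het-labelled livers minus that in wild-type livers, 33 of 41 members were below 0, with a median of -0.28 against -0.02 over all rows, of which 47.1% were above 0. EdgeR passed 0 of 12593 rows (0%) and DESeq2 22, no member among them. At an unadjusted p under 0.05, 8 members were below 0 and 0 above, against 4.11% and 3.03% of all rows. Averaged over the genotypes, the diet difference passed for 3 members, with Dtx3l higher and Trim25 and the Ifi47 row lower, while 10.4% of all rows were called, 5.56% higher and 4.84% lower. In that average 24 members were higher, against 51.5% of all rows, with a median of 0.07. The 3 called members became 1 without library 1 and 5 without libraries 3 and 8. The 4 groups enter several of these comparisons, so the comparisons share libraries and are not independent of one another.

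**Figure D4:**
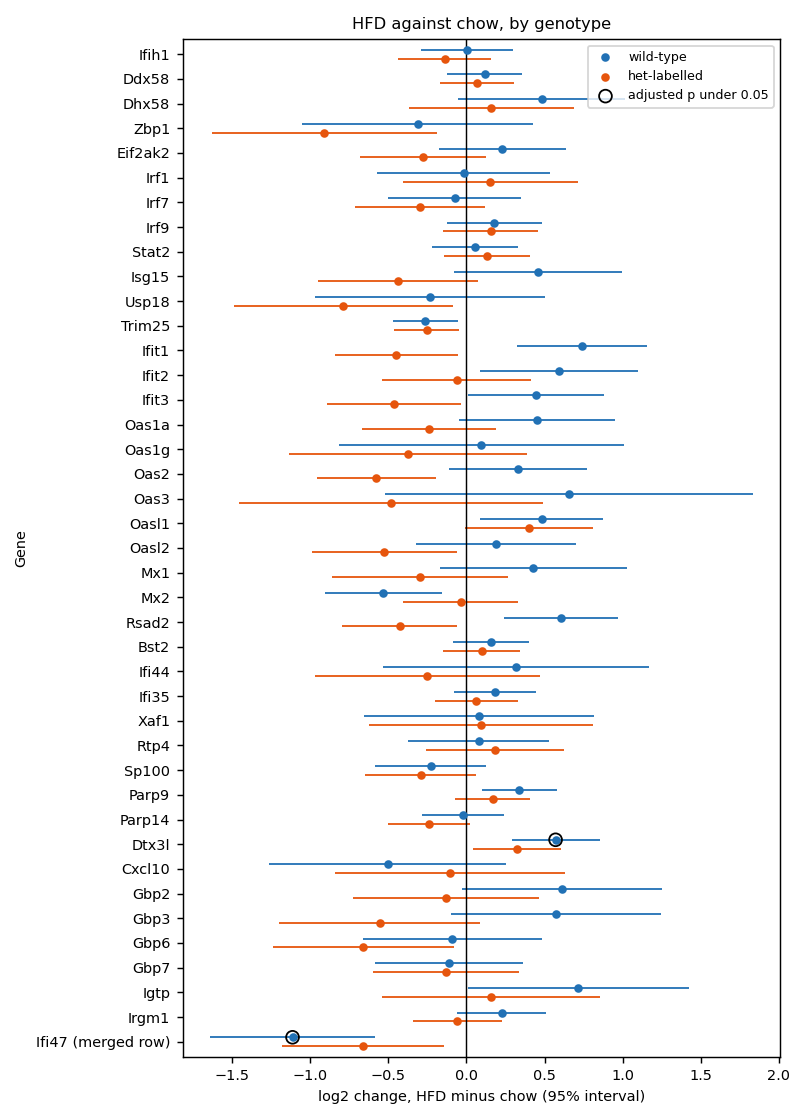
Log2 difference of HFD minus chow for each of the 41 members in wild-type and in het-labelled livers, with 95% intervals from the edgeR fit; rings mark an adjusted p under 0.05. In wild-type livers 29 points lie above 0, with Dtx3l and the Ifi47 row ringed, and in het-labelled livers 28 lie below 0 and none is ringed.

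Among the sensors of foreign nucleic acid, no member of 5 passed a test. Ifih1 (MDA5), which binds long double-stranded RNA, stood at 28.7 and 35.3 CPM on chow and 33.6 and 30.5 on HFD in wild-type livers, and at 34.5 and 36.3 on chow and 29.2 and 35.2 on HFD in het-labelled livers. Its groups overlapped in each comparison. Zbp1, a sensor of Z-form nucleic acid that can start cell death, stood at 3.78 and 3.36 CPM on chow and 3.69 and 2.08 on HFD in wild-type livers, and at 5.95 and 5.31 on chow and 2.20 and 3.91 on HFD in het-labelled livers. Both het-labelled chow libraries were above the 6 others, and the diet difference in het-labelled livers was -0.91 ± 0.32 (SE) on the log2 scale (edgeR adjusted p = 0.171). Ddx58 (RIG-I), which binds RNA with a 5′ triphosphate, had all 4 het-labelled libraries, at 29.3 to 33.4 CPM, above the wild-type range of 23.4 to 28.3 CPM. For Dhx58, a regulator of the RIG-I-like receptors, and the kinase Eif2ak2 (PKR), which halts translation on double-stranded RNA, both het-labelled chow libraries were above both wild-type chow libraries.

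Of the 4 transcription factors none passed. Stat2, a part of the type I complex, stood at 55.1 and 60.1 CPM on chow and 63.1 and 56.8 on HFD in wild-type livers, and at 70.9 and 72.3 on chow and 69.3 and 87.7 on HFD in het-labelled livers. All 4 het-labelled libraries were above all 4 wild-type libraries, and the genotype difference over both diets was 0.35 ± 0.09 (SE; edgeR adjusted p = 0.0626). Irf7, the factor that amplifies type I interferon production, ran from 30.5 to 46.0 CPM in het-labelled and from 21.9 to 29.8 CPM in wild-type libraries, with an adjusted p of 0.0589 by edgeR for the same comparison. Irf9, the DNA-binding part of the complex, had overlapping genotypes on each diet. Irf1, the main factor of the interferon gamma response, showed no group apart from another in any of the 4 pairwise comparisons, with a range of 15.9 to 24.9 CPM.

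The ISG15 system attaches a small ubiquitin-like protein to other proteins. Isg15 itself ran from 5.36 CPM in wild-type chow library 1 to 14.2 CPM in het-labelled chow library 4, but its chow genotype difference, with a 95% interval of 0.47 to 1.53 on the log2 scale, did not pass (edgeR adjusted p = 0.0992). Usp18, the protease that removes ISG15 and also restrains the type I receptor, ran from 10.7 to 16.8 CPM in het-labelled chow and from 4.65 to 7.79 CPM in wild-type libraries. Trim25, a ubiquitin ligase that acts with RIG-I, followed the diet instead. It stood at 91.2 and 87.4 CPM on chow and 78.9 and 70.0 on HFD in wild-type livers, and at 92.6 and 92.7 on chow and 81.4 and 74.0 on HFD in het-labelled livers. Every HFD library was below every chow library, and Trim25 fell by 0.26 ± 0.06 on the log2 scale over both genotypes (edgeR adjusted p = 0.0398). That call was lost in 9 of 12 alternatives, without libraries 3 and 8 among them (adjusted p = 0.0789).

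The IFIT proteins bind viral RNA that lacks the cap methylation of the host. Ifit1 stood at 5.10 and 6.78 CPM on chow and 11.0 and 8.97 on HFD in wild-type livers, and at 12.7 and 15.7 on chow and 10.4 and 10.5 on HFD in het-labelled livers. The wild-type chow pair was below, and the het-labelled chow pair above, every other library. On chow Ifit1 was 2.38-fold higher in het-labelled livers, by 1.25 ± 0.18 on the log2 scale (edgeR adjusted p = 0.0407). That call passed in 7 of 13 alternatives, with log2 differences from 1.05 to 1.47. The diet difference of Ifit1 was 0.74 ± 0.18 in wild-type livers (edgeR adjusted p = 0.0582) and -0.45 ± 0.17 in het-labelled livers (adjusted p = 0.210). Ifit3 stood at 8.13 and 10.4 CPM on chow and 13.1 and 12.1 on HFD in wild-type livers, and at 12.9 and 18.8 on chow and 11.8 and 11.2 on HFD in het-labelled livers. It had the same order of the chow groups, and both HFD groups lay between them apart from wild-type HFD library 5, which was above het-labelled chow library 3. For Ifit2 the wild-type chow libraries, at 1.83 and 2.43 CPM, were below the other 6, which ran from 3.06 to 4.04 CPM. Transcripts of Ifit3 and its copy Ifit3b share 51.2% of the 50-base words of Ifit3, so their counts may not be separable, while Ifit1 shares 7.13% and Ifit2 none.

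In the OAS group 3 of 6 members were called higher in het-labelled livers over both diets, against 1.21% of all rows. OAS enzymes make 2′-5′ oligoadenylates on double-stranded RNA and so activate RNase L. Oasl1 and Oasl2 belong to an OAS-like branch of this family. Oas2 stood at 2.58 and 3.42 CPM on chow and 3.87 and 3.72 on HFD in wild-type livers, and at 8.58 and 9.80 on chow and 6.38 and 5.90 on HFD in het-labelled livers. All 4 het-labelled libraries were above all 4 wild-type libraries, and the 2 diets did not overlap within either genotype. The level was 3.05-fold higher in het-labelled livers on chow, by 1.61 ± 0.18 on the log2 scale (edgeR adjusted p = 0.0247). On HFD the difference was 0.70 ± 0.18 (adjusted p = 0.142), and over both diets 1.15 ± 0.13 (adjusted p = 0.00786).

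Oas1a stood at 1.70 and 1.51 CPM on chow and 2.25 and 2.13 on HFD in wild-type livers, and at 3.97 and 4.15 on chow and 3.22 and 3.70 on HFD in het-labelled livers. The 4 groups did not overlap at all and kept the order wild-type chow, wild-type HFD, het-labelled HFD, het-labelled chow. On chow Oas1a was 2.53-fold higher in het-labelled livers (log2 difference 1.34 ± 0.21, edgeR adjusted p = 0.0459), and over both diets 1.99-fold higher (adjusted p = 0.0188). Its copy Oas1g ran from 1.56 to 2.65 CPM in het-labelled and from 0.638 to 1.32 CPM in wild-type libraries. Since 57.6% of the 50-base words of Oas1a occur in Oas1g, reads of this pair may be divided between the rows in an unknown way, whereas Oas2 shares no such word with another gene. The chow call of Oas1a passed in 4 of 13 alternatives, and without libraries 3 and 8 it was among those lost. Its log2 difference ran from 1.25 to 1.41 over these fits.

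Oasl2 stood at 2.39 and 3.25 CPM on chow and 3.17 and 3.28 on HFD in wild-type livers, and at 5.39 and 7.08 on chow and 4.45 and 4.20 on HFD in het-labelled livers. Again every het-labelled library was above every wild-type library, and Oasl2 rose by 0.78 ± 0.15 on the log2 scale over both diets (edgeR adjusted p = 0.0342). Its neighbour Oasl1, known to restrain the translation of Irf7, stood at 9.95 and 13.0 CPM on chow and 15.6 and 16.5 on HFD in wild-type livers, and at 12.0 and 8.57 on chow and 13.4 and 13.7 on HFD in het-labelled livers. HFD libraries were above chow libraries within each genotype, with a diet difference over both genotypes of 0.44 ± 0.13 (adjusted p = 0.0605). Oas3, at 0.522 to 1.77 CPM, had both het-labelled chow libraries above the 6 others.

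**Figure D5:**
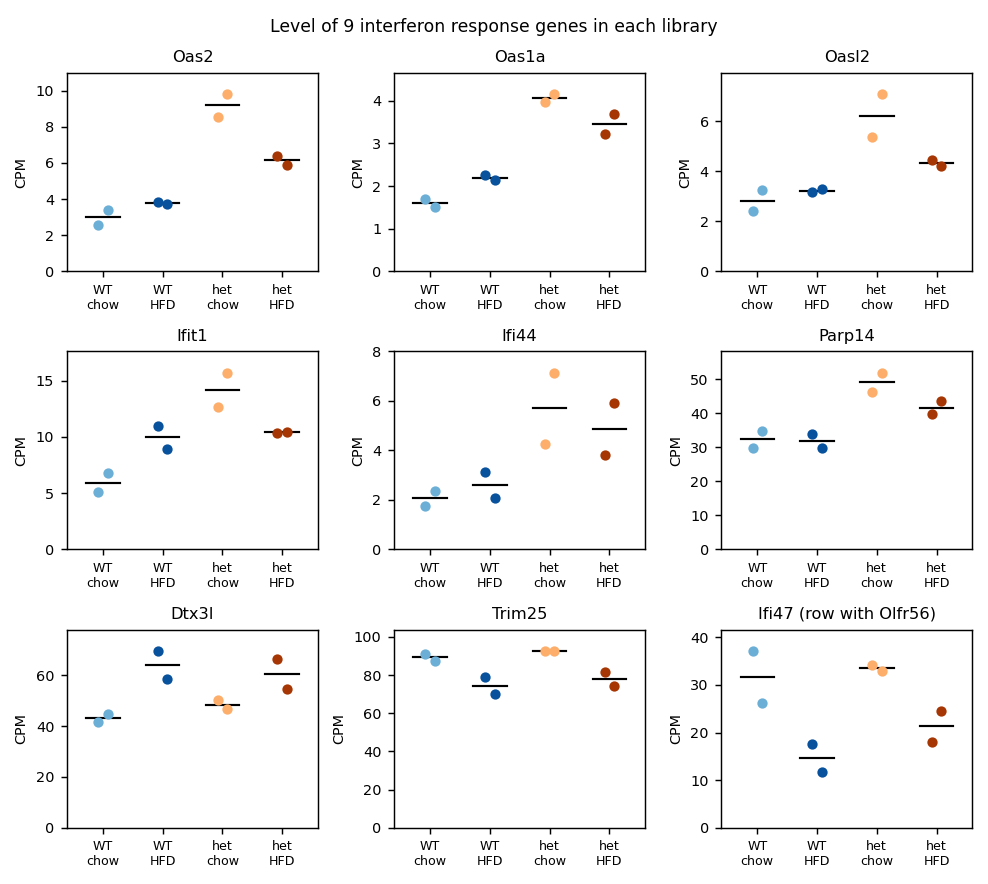
CPM of each member called in at least 1 comparison, by library and group, with bars at the group means; each panel has its own axis from 0. Oas2, Oas1a, Oasl2, Ifi44 and Parp14 have all het-labelled points above all wild-type points, whereas Dtx3l, Trim25 and the Ifi47 row divide by diet.

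Among the other 9 antiviral effectors, Ifi44 was the 1 called. Ifi44, which is induced by interferon and linked to antiviral defence, stood at 1.76 and 2.38 CPM on chow and 3.12 and 2.08 on HFD in wild-type livers, and at 4.25 and 7.14 on chow and 3.81 and 5.90 on HFD in het-labelled livers. The genotypes did not overlap, although the 2 libraries of each het-labelled group were far apart, and Ifi44 rose by 1.17 ± 0.24 on the log2 scale over both diets (edgeR adjusted p = 0.0411). Rsad2 (viperin), which makes a chain-terminating nucleotide, stood at 9.26 and 9.10 CPM on chow and 16.2 and 11.8 on HFD in wild-type livers, and at 13.2 and 13.9 on chow and 10.4 and 9.67 on HFD in het-labelled livers. It was higher on HFD in wild-type livers and lower on HFD in het-labelled livers, with no overlap in either, and its highest value was in wild-type HFD library 5. Between genotypes it was higher in het-labelled livers on chow and lower in them on HFD, again with no overlap. The interaction was -1.03 ± 0.23 on the log2 scale (unadjusted p = 0.00145, edgeR adjusted p = 0.580).

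Bst2 (tetherin), which holds budding viruses at the cell surface, stood at 109.6 and 117 CPM on chow and 121 and 132 on HFD in wild-type livers, and at 128 and 131 on chow and 125 and 153 on HFD in het-labelled livers. Wild-type chow was the lowest group, and the HFD groups overlapped between genotypes. Its genotype difference over both diets was 0.16 ± 0.08 (edgeR adjusted p = 0.269). The Mx GTPases trap viral particles, and Mx1 was lowest in wild-type chow libraries at 1.22 and 1.32 CPM and highest in het-labelled chow libraries at 2.06 and 2.45 CPM. Mx2 differed from Mx1 in order, because its wild-type HFD libraries, at 3.69 and 4.32 CPM, were below the other 6, at 5.51 to 6.45 CPM. Rtp4, a chaperone of membrane receptors, had all het-labelled libraries above all wild-type libraries, at 11.8 to 16.8 against 8.57 to 11.5 CPM. Ifi35 ran from 20.1 to 25.2 CPM, the pro-apoptotic Xaf1 from 3.34 to 6.54 CPM and the nuclear body protein Sp100 from 5.02 to 7.80 CPM, and none of them passed.

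Parp14, Dtx3l and Parp9 lie next to one another in the genome, and Dtx3l and Parp9 overlap. Parp14, an ADP-ribosyltransferase, stood at 29.8 and 34.9 CPM on chow and 33.9 and 29.9 on HFD in wild-type livers, and at 46.4 and 52.0 on chow and 39.9 and 43.6 on HFD in het-labelled livers. Its genotypes did not overlap, and Parp14 rose by 0.50 ± 0.08 on the log2 scale in het-labelled livers over both diets (edgeR adjusted p = 0.0220). Dtx3l, a ubiquitin ligase that forms a complex with Parp9, stood at 41.6 and 44.6 CPM on chow and 69.6 and 58.5 on HFD in wild-type livers, and at 50.1 and 46.7 on chow and 66.5 and 54.5 on HFD in het-labelled livers. Every HFD library was above every chow library. In wild-type livers Dtx3l was 1.49-fold higher on HFD (log2 difference 0.57 ± 0.12, edgeR adjusted p = 0.0375), and over both genotypes 1.36-fold higher (adjusted p = 0.0147). In wild-type livers the call was lost when library 1, 2, 5 or 6 was left out, at an adjusted p of up to 0.294. Parp9 was higher in every HFD library, at 52.5 to 63.5 CPM, than in both wild-type chow libraries, at 42.8 and 46.9 CPM. Its het-labelled chow libraries, at 53.3 and 53.4 CPM, lay above wild-type HFD library 6, at 52.5 CPM. The diet difference of Parp9 over both genotypes was 0.25 ± 0.07 (edgeR adjusted p = 0.0692).

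Cxcl10, the chemokine of the list, draws T cells to inflamed tissue. It stood at 3.28 and 2.90 CPM on chow and 3.001 and 1.37 on HFD in wild-type livers, and at 3.69 and 3.06 on chow and 3.43 and 2.77 on HFD in het-labelled livers. The groups overlapped in each pairwise comparison, and its largest log2 difference in either direction, 0.52 ± 0.33 for genotype on HFD, had an edgeR adjusted p of 0.538.

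The 7 GTPases attack vacuoles that hold microbes and answer mainly to interferon gamma. All 7 were higher in het-labelled livers on chow, 6 without overlap, at a median log2 difference of 0.45, against 52.5% and 24.0% of all rows. None passed, in a comparison that called 0.516% of all rows. Irgm1, a regulator of the other immunity-related GTPases, stood at 48.3 and 58.6 CPM on chow and 67.3 and 57.8 on HFD in wild-type livers, and at 73.5 and 72.2 on chow and 64.6 and 75.5 on HFD in het-labelled livers. Het-labelled chow was above all wild-type libraries, with a difference of 0.45 ± 0.13 on chow (edgeR adjusted p = 0.151). Compared with chow, 4 of the 7 GTPases were higher on HFD within wild-type livers and 1 within het-labelled livers, against 53.9% and 48.8% of all rows. The Ifi47 row was the 1 called, where 4.59% of all rows were called in wild-type livers and 10.4% over both genotypes. It stood at 37.2 and 26.2 CPM on chow and 17.7 and 11.6 on HFD in wild-type livers, and at 34.2 and 32.9 on chow and 18.0 and 24.5 on HFD in het-labelled livers. All chow libraries were above all HFD libraries, and the row fell by 1.11 ± 0.23 on the log2 scale in wild-type livers (adjusted p = 0.0325) and by 0.89 ± 0.16 over both genotypes (adjusted p = 0.0114).

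Igtp, another immunity-related GTPase, showed 1 library far from its pair, with 46.9 CPM in wild-type HFD library 5 against 19.7 in library 6. Its het-labelled libraries ran from 30.7 to 36.5 CPM, above the 20.0 and 20.5 CPM of wild-type chow. The guanylate-binding proteins Gbp2, at 1.68 to 4.11 CPM, and Gbp3, at 3.53 to 10.1 CPM, had both het-labelled chow libraries above both wild-type chow libraries. Gbp6 ran from 16.0 to 36.9 CPM and Gbp7 from 11.2 to 19.3 CPM, with the lowest value of Gbp6 in het-labelled HFD library 7 and that of Gbp7 in wild-type HFD library 6. The level of Gbp6 is uncertain, because 90.2% of its 50-base words also occur in the gene Gm43302.

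The rest of the pathway was followed in a list of 99 other genes, of which 85 were tested. RNA of the interferons themselves was at or near 0: Ifnb1 had 0 counts in all 8 libraries, as did Ifna1, Ifna2, Ifna4, Ifna5, Ifne and Il28a, and Ifng had 1 count in each of libraries 3, 6 and 8. A count of 0 allows up to 3 counts, or 0.161 to 0.213 CPM depending on the library, for counting error only. The type I receptor chain Ifnar1 stayed between 36.6 and 41.8 CPM in all libraries, and Ifnar2 fell by 0.35 ± 0.09 on the log2 scale on HFD over both genotypes (edgeR adjusted p = 0.0367), in a range of 36.6 to 56.3 CPM. The interferon gamma receptor chain Ifngr1 had 16.5 to 17.8 CPM in het-labelled chow libraries, above the 9.46 to 12.2 CPM of the other 6, and it fell on HFD by 0.59 ± 0.12 in het-labelled livers (adjusted p = 0.0439). Over both genotypes it fell on HFD by 0.40 ± 0.09 (adjusted p = 0.0245), and over both diets it was higher in het-labelled livers by 0.41 ± 0.09 (adjusted p = 0.0443). Ifngr2 ran from 10.8 to 15.3 CPM with overlapping groups in each pairwise comparison.

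Irf3, which switches on interferon genes, ran from 36.9 to 51.3 CPM and passed no test. On chow 73 of the 85 genes were higher in het-labelled livers, against 52.5% of all rows, and 1, against 0.326% of all rows, Ifi27l2a, an interferon-induced mitochondrial protein gene, rose (1.19 ± 0.20, edgeR adjusted p = 0.0497). Over both diets 6 rose and 0 fell, against 1.21% and 2.03% of all rows, led by the helicase gene Ddx60 (0.86 ± 0.13, adjusted p = 0.0203), Ifi203 of the DNA-sensing Ifi200 family (0.51 ± 0.10, adjusted p = 0.0307), Trim30a (0.78 ± 0.15, adjusted p = 0.0323) and Ifi27l2a (0.76 ± 0.15, adjusted p = 0.0325). Under HFD in wild-type livers 1 rose and 1 fell, against 2.37% and 2.22% of all rows. These were Tap1, a peptide transporter of antigen presentation (0.70 ± 0.14, adjusted p = 0.0246), and Irf5, a factor of inflammatory macrophages (-1.67 ± 0.32, adjusted p = 0.0250). In het-labelled livers Ifngr1 was the 1 gene called, against 3.02% of all rows. Over both genotypes 2 rose and 6 fell, against 5.56% and 4.84% of all rows, with Tap1 (0.59 ± 0.10, adjusted p = 0.00669), Ifitm2, which blocks viral entry (-0.42 ± 0.08, adjusted p = 0.0158), and Irf5 (-1.04 ± 0.22, adjusted p = 0.0203) among them. No gene of the list passed for genotype on HFD or for the interaction.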

How the data were processed

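Liver RNA of 8 libraries was analysed from the deposited table of whole-number read counts per gene, which the authors did not normalize. The submitters' processing notes name mm9 as the mouse build, with TopHat2, HTSeq, CASAVA and DESeq as tools. Versions and settings are not given in the sources used here. Whether counting used strand is not given either, so reads of overlapping genes cannot be told apart. In RefSeq 15 of the 39 members found there overlap another gene, among them Rtp4 with Masp1, Stat2 with Apof and Ifit1 with Ifit1bl1. In 374 rows several symbols are joined.

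Counts were fitted with edgeR 4.0.16 in R 4.3.3 as 4 group means over all 8 libraries, after the filterByExpr filter (12593 of 22946 rows) and TMM scaling, with 4 residual and 4.77 prior degrees of freedom and a common biological coefficient of variation of 11.2%. Tests were quasi-likelihood and 2-sided, a Benjamini-Hochberg adjustment covered every tested row, and genes with an adjusted p under 0.05 were called. Each SE was computed back from the log2 change and its test statistic, and each 95% interval from that SE. Libraries of a group differed by more than sampling noise, with a chi-square of 14.9 to 16.3 for each degree of freedom, and each counted as 1 replicate. A mean of log2 levels used an offset of 0.5 CPM. The fit was tested on simulated counts. Promoters were searched in RefSeq sequences of build GRCm38.p6, and near-identical copies were looked for as shared 50-base words of transcripts.

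The members, the gene lists, the tests and the alternatives were chosen with earlier results of these data known. The rule gives every library's value for each called member, for the member with the highest mean CPM of each role and for the 3 members with the smallest p in each comparison, and it names all 41. From the pathway list it names up to 4 called genes a comparison, and always Ifnb1, Ifng, Ifnar1, Ifnar2, Ifngr1, Ifngr2 and Irf3; 1 other gene it names is not reported here. Alternatives were DESeq2 1.42.0 or its size factors, no filter, each library left out, only the groups compared, and libraries 3 and 8 left out together.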

Additional observations from a re-analysis of the deposited data

Results flagged for a closer look

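For 6 members both HFD libraries lay above both chow libraries in wild-type livers and below them in het-labelled livers, so the 2 genotypes differed in opposite directions under the same diet; 2.95% of all tested rows did so. The log2 interaction was -1.19 for Ifit1 (unadjusted p = 0.00119, edgeR adjusted p = 0.580), -1.03 for Rsad2 (0.00145 and 0.580), -0.91 for Oas2 (0.00658 and 0.588) and -0.91 for Ifit3 (0.00858 and 0.599). It was -0.69 for Oas1a (0.0426 and 0.690) and -0.72 for Mx1 (0.0770 and 0.702). The test of the difference therefore passed for none of the 6 after adjustment. For Ifit3 and Rsad2 the genotype difference also changed sign with diet: both het-labelled libraries were above both wild-type libraries on chow and below them on HFD, as in 2.87% of all tested rows, and the interaction is the same -0.91 and -1.03. Without libraries 3 and 8 the interaction was -1.34 for Ifit1, -1.02 for Rsad2 and -0.94 for Oas2, with edgeR adjusted p values of 0.362, 0.508 and 0.594.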

How the results depend on the processing

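No paired analysis was possible because the libraries are numbered from 1 to 8 and no 2 groups share a number. The count of called members changed by over 1.5 times as follows. With no low-count filter it was 4 for diet in wild-type livers and 8 for genotype on chow. With DESeq2 it was 5 for genotype on chow, and with only the groups compared it was 1. Without libraries 3 and 8 it was 2 for diet in het-labelled livers, 5 for genotype on chow and 5 for diet over both genotypes. Leaving out 1 library at a time gave 0 to 3 for diet in wild-type livers, 0 to 1 for diet in het-labelled livers, 0 to 3 for genotype on chow, 0 for genotype on HFD and for the interaction, 1 to 3 for diet over both genotypes and 1 to 6 for genotype over both diets. Where this leaves a group with 1 library, that library is assumed to vary like those of the other groups. Of 173 refits of single genes in comparisons where they were called, 67 lost the call; of 127 refits where they were not, 5 gained one, and 0 of the 300 reversed. The number of members higher in het-labelled livers on chow stayed at 38 or 39 of 41 with 1 library left out. The calls over all rows moved more: genotype on chow had 65, but 219 with DESeq2, 314 with no filter and 1 without library 1 or 2. The promoter share was 64.5% with the shorter motif GAAANNGAA, against 9.76% of all genes. With 2 libraries per group, a difference that did not pass was not detectable here rather than absent.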
